A study of Mus musculus with 4 samples.

Results

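Blood vessels in fat are wrapped by mural cells, and 10 genes that mark these cells were followed in the inguinal white fat (ingWAT), which lies under the skin, of Ctrl and *Oct3* cKO mice. The genes are *Acta2*, *Myh11*, *Tagln*, *Cnn1*, *Lmod1*, *Rgs5*, *Cspg4*, *Notch3*, *Kcnj8* and *Abcc9*. They were taken by symbol, and all 10 stood among the 19030 genes of the expression table. Smooth muscle cells ring arteries and veins and contract through actin and a smooth muscle myosin, whose genes are read under the control of serum response factor and its partner myocardin. Pericytes sit along capillaries, are recruited by PDGF-B from the endothelium, and carry the NG2 proteoglycan, the receptor Notch3 and an ATP-sensitive potassium channel that lowers vessel tone. In fat, mural cells also share many genes with the fibroblast-like cells from which adipocytes form.

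Poly-A RNA of 4 libraries was sequenced, 2 from Ctrl and 2 from cKO ingWAT. Ctrl mice carried *Oct3* alleles flanked by loxP sites, and cKO mice lacked *Oct3* through an Adiponectin-Cre transgene, which is active in adipocytes and not meant to act in mural cells. All mice were C57BL/6, 3 months old and kept at 4°C. The paper states that its cold challenge was done on male mice. How many mice each library holds is not given in the sources used here. Expression was given as FPKM, the fragments of a gene scaled to transcript length and to the mapped fragments of the library, so levels can be set side by side between genes. The deleted gene *Slc22a3*, which encodes Oct3, stood at 16.95 and 17.68 FPKM in Ctrl and at 9.07 and 9.5 FPKM in cKO (log2 fold change -0.83, adjusted p = 0.000439 by limma). The adipocyte gene *Adipoq* stood at 966 to 1527 FPKM in the 4 libraries. Read depth was estimated from the steps between low values as 17400000 to 18100000 reads per library. FPKM summed to 484152 and 489669 in Ctrl and to 497385 and 497839 in cKO.

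For each gene, log2(FPKM + 1) was set against genotype with limma. The fit covered the 12658 genes whose mean reached 1 FPKM, with all 10 vascular genes among them, and a gene was called when its p, with Benjamini-Hochberg adjustment for all genes fitted, was under 0.05. A positive log2 fold change means a higher level in cKO, and errors are the SD of 2 libraries. Whether the replicate libraries came from separate animals is not stated, so the p-values measure only the spread between these libraries. Of the 10 genes, 3 were lower in cKO (*Rgs5*, *Cspg4* and *Notch3*), 1 was higher (*Acta2*) and 6 were not called. Over all genes tested, 13.8% were called lower and 12.0% higher. For 5 of the 10 genes the cKO pair lay wholly below the Ctrl pair and for 1 wholly above it, against 34.6% and 31.9% of all genes. The median log2 fold change of the 10 was -0.16, and that of all genes tested was -0.01. In bulk tissue, fewer cells of a type and less RNA per cell cannot be told apart.

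**Figure D1:**
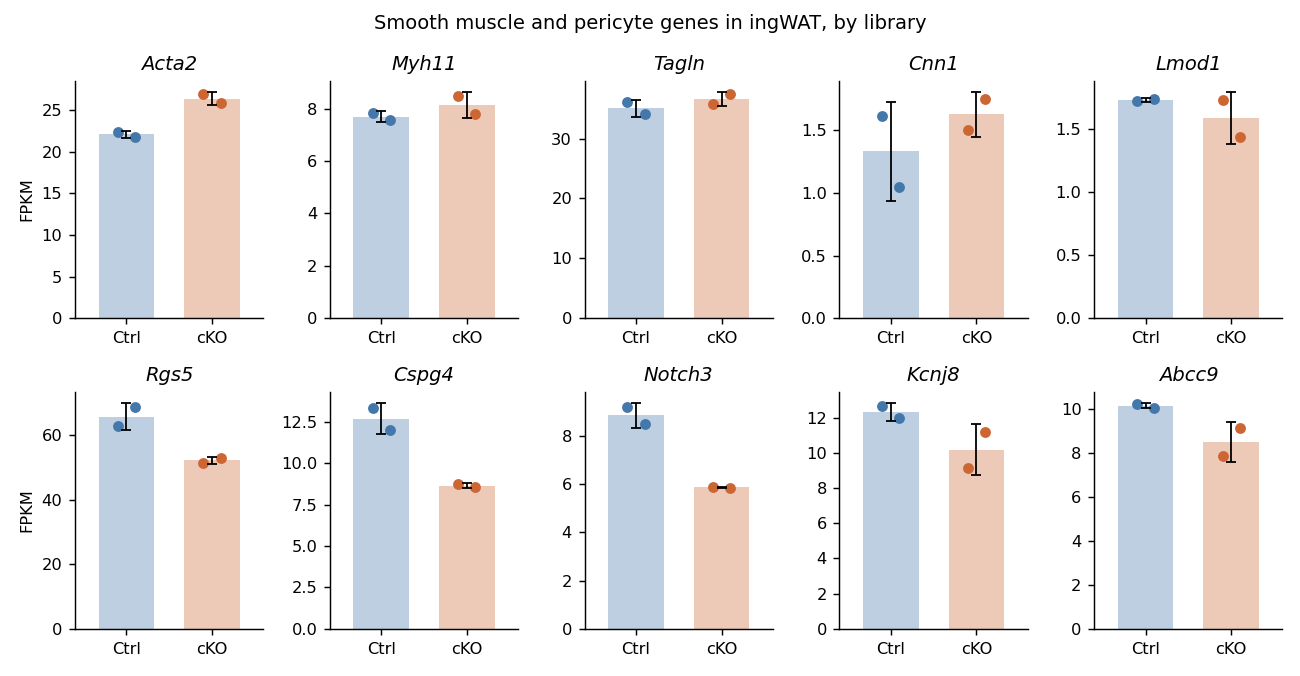
FPKM of the 10 vascular genes in Ctrl and cKO ingWAT, 1 panel per gene and each axis from 0. Points are single libraries, bars the mean of 2 and error bars the SD. In the upper row (contractile genes) the *Acta2* points of cKO (26.87 and 25.76) lie above those of Ctrl, while in the lower row all 5 genes have both cKO points below both Ctrl points.

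Of the 5 contractile genes of smooth muscle, 1 rose and 4 were not called. *Acta2* (Entrez gene 11475, chr19:34240336-34255585), which encodes smooth muscle alpha-actin, had 22.34 and 21.76 FPKM in Ctrl and 26.87 and 25.76 FPKM in cKO. Both cKO libraries lay above both Ctrl libraries, and the mean level was 1.19-fold that of Ctrl. On the log2(FPKM + 1) scale the difference was 0.24 ± 0.06 (SE), with an adjusted p = 0.023 (limma, Benjamini-Hochberg), and the call was lost when any of the 4 libraries was left out, with adjusted p from 0.0509 to 0.125 by limma. Gene positions are those of GRCm38. The RefSeq promoter window, from 250 bases before the start to 50 after it (chr19:34255324-34255623, GRCm38.p6, minus strand), is shown because this was the 1 gene called higher. Capitals mark TGGGAA, the core of the sites of Rbpj, the DNA-binding partner of Notch receptors, and CATTCC, the core of TEAD factor sites, each on either strand and here not overlapping.

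Acta2: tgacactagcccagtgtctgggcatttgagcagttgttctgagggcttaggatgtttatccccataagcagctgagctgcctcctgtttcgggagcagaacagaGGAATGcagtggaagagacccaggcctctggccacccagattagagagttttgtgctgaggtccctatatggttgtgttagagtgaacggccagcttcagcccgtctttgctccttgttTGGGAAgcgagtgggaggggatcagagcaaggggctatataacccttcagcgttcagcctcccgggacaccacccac

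The TGGGAA match begins at -27 and the CATTCC match, read on the other strand, at -146 from the start on which the window was built. That start lies inside the gene span given above, so these positions are not counted from the end of that span. A tatataa stretch lies after that start, and whether transcription begins there was not tested. Of all 32851 promoter windows of this length, 25.6% hold TGGGAA and 14.7% hold CATTCC. A CArG box, the element of serum response factor, was searched by its strict consensus, which 1.63% of all windows hold. It was not matched in the window of *Acta2* or of the 7 other genes that had one. The *Acta2* window does hold ccctatatgg and ccttgtttgg, which come close to that consensus, and the latter overlaps the marked TGGGAA. Looser forms of the element were not searched, so its absence is not shown.

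*Tagln* (Entrez gene 21345, chr9:45929628-45936058) encodes transgelin, an actin-binding protein that is abundant in smooth muscle. It had 36.05 and 34.02 FPKM in Ctrl and 35.81 and 37.39 FPKM in cKO. The groups overlapped, and the log2 fold change was 0.06 with a 95% interval from -0.08 to 0.20. On the opposite strand, 747 of the 1546 stretches of 50 bases in its transcript lie in the GENCODE transcripts of the neighbours Gm48529 and *Pcsk7*. The protocol does not mark the strand, so reads of these genes cannot be told apart there. *Pcsk7*, a proprotein convertase, was itself at 8.08 to 9.4 FPKM.

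*Myh11* (Entrez gene 17880, chr16:14194527-14292188), the smooth muscle myosin heavy chain and the most specific of these markers, had 7.84 and 7.55 FPKM in Ctrl and 8.48 and 7.79 FPKM in cKO. The ranges overlapped, and the log2 fold change was 0.07 with a 95% interval from -0.11 to 0.25. *Cnn1* (Entrez gene 12797, chr9:22099221-22109221), calponin 1, which slows the myosin motor, was low, with 1.61 and 1.05 FPKM in Ctrl and 1.5 and 1.75 FPKM in cKO. At the estimated depth these values stand for about 45 to 71 reads per library, and the interval of the log2 fold change ran from -0.17 to 0.53. *Lmod1* (Entrez gene 93689, chr1:135324813-135368065), leiomodin 1, which starts new actin filaments, had 1.72 and 1.74 FPKM in Ctrl and 1.73 and 1.44 FPKM in cKO, about 98 to 123 reads. Its interval ran from -0.35 to 0.19. In these 4 genes the groups overlapped, and the intervals of *Myh11* and *Tagln* left room for changes of at most 0.25 on the log2 scale in either direction.

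*Rgs5*, *Cspg4* and *Notch3*, grouped here as pericyte genes, were called lower. The channel genes *Kcnj8* and *Abcc9*, which pericytes also carry, are treated apart below and were not called. This grouping was made with earlier results of these data known. *Rgs5* (Entrez gene 19737, chr1:169655501-169695813), a brake on G protein signalling and the most abundant of the 10 genes, had 62.81 and 68.76 FPKM in Ctrl and 51.5 and 53.06 FPKM in cKO. The cKO pair lay wholly below the Ctrl pair, at 0.795 of the Ctrl mean. On the log2(FPKM + 1) scale the difference was -0.32 ± 0.06 (SE), with an adjusted p = 0.0106 (limma, Benjamini-Hochberg), and the call was lost without Ctrl replicate 2 (adjusted p = 0.0773 by limma) and without cKO replicate 1 (adjusted p = 0.0615 by limma).

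*Cspg4* (Entrez gene 121021, chr9:56865104-56899870) encodes NG2, the proteoglycan by which pericytes are commonly stained. It had 13.35 and 12.02 FPKM in Ctrl and 8.75 and 8.54 FPKM in cKO, 0.682 of the Ctrl mean. The gap between the genotypes was wider than the gap between replicates, and the change was -0.50 ± 0.08 (SE) on the log2 scale, with an adjusted p = 0.0037 (limma, Benjamini-Hochberg). *Notch3* (Entrez gene 18131, chr17:32120820-32166896), the Notch receptor of mural cells, had 9.21 and 8.48 FPKM in Ctrl and 5.88 and 5.86 FPKM in cKO, 0.664 of the Ctrl mean. Its change was close to that of *Cspg4*, at -0.52 ± 0.08 (SE) on the log2 scale, with an adjusted p = 0.00343 (limma, Benjamini-Hochberg). Without Ctrl replicate 1 neither gene was called by limma (adjusted p = 0.0605 for *Cspg4* and adjusted p = 0.0632 for *Notch3*). On the opposite strand, 392 of the 7967 stretches of 50 bases in *Notch3* lie in Gm17276.

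The promoter windows of these 3 genes are shown because they were the genes called lower. They lie at chr1:169655251-169655550 (plus strand) for *Rgs5*, chr9:56864854-56865153 (plus strand) for *Cspg4* and chr17:32166841-32167140 (minus strand) for *Notch3*, in GRCm38.p6. None of the 3 holds a match to the Rbpj core, the TEAD core or the CArG box named above, so no letters are in capitals. Among the other genes, the Rbpj core was matched in the windows of *Kcnj8* and *Abcc9*, and the TEAD core in those of *Lmod1* and, overlapping the Rbpj core, *Abcc9*.

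Rgs5: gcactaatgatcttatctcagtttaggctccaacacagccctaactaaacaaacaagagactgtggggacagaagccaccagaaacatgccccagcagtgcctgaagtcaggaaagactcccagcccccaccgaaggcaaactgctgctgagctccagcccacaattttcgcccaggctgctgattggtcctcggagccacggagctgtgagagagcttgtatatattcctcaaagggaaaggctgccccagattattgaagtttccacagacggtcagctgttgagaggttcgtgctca
Cspg4: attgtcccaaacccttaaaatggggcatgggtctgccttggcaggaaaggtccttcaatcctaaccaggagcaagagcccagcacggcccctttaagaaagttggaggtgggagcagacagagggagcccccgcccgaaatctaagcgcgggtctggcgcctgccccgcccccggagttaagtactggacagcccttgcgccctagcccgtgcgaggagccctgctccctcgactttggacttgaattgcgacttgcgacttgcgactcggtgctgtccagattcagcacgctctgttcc
Notch3: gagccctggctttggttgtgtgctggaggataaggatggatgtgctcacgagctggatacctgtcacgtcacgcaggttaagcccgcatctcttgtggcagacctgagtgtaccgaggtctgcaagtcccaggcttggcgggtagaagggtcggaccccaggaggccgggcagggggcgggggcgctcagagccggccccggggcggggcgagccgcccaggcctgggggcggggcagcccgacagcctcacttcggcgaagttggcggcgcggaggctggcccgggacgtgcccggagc

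*Kcnj8* and *Abcc9* encode the pore Kir6.1 and the sulfonylurea receptor SUR2 of the potassium channel of vascular smooth muscle and pericytes. They are neighbours on chromosome 6, with 16247 bases and 0 protein-coding genes between them. *Kcnj8* (Entrez gene 16523, chr6:142564837-142571614) had 12.68 and 11.97 FPKM in Ctrl and 9.14 and 11.19 FPKM in cKO. *Abcc9* (Entrez gene 20928, chr6:142587862-142702766) had 10.24 and 10.07 FPKM in Ctrl and 7.85 and 9.15 FPKM in cKO. For both genes the cKO libraries lay below the Ctrl libraries and cKO replicate 1 was the lowest. Neither was called, with a log2 fold change of -0.26 for *Kcnj8* (95% interval -0.49 to -0.03, adjusted p = 0.0935 by limma) and of -0.24 for *Abcc9* (95% interval -0.44 to -0.03, adjusted p = 0.0849). Without cKO replicate 2 both were called lower by limma (adjusted p = 0.0294 and adjusted p = 0.0409). The ratio of *Kcnj8* to *Abcc9* FPKM was 1.24 and 1.19 in Ctrl and 1.16 and 1.22 in cKO, a narrow range in all 4 libraries. Their islet counterparts were low, with *Kcnj11* at 0.54 to 0.93 FPKM and *Abcc8* at 0.05 to 0.09 FPKM.

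The order of the levels was led by *Rgs5*, followed by *Tagln* and *Acta2*, in every library. The ratio of *Acta2* to *Rgs5* was 0.356 and 0.316 in Ctrl and 0.522 and 0.485 in cKO, higher in both cKO libraries. The ratio of *Acta2* to *Notch3* was 2.43 and 2.57 in Ctrl and 4.57 and 4.4 in cKO. No test of these ratios was run. *Kcnj8*, *Cspg4* and *Abcc9* lay close together in Ctrl, between 10.07 and 13.35 FPKM, and *Myh11* and *Notch3* between 7.55 and 9.21 FPKM. *Cnn1* and *Lmod1* were the lowest, with overlapping ranges.

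**Figure D2:**
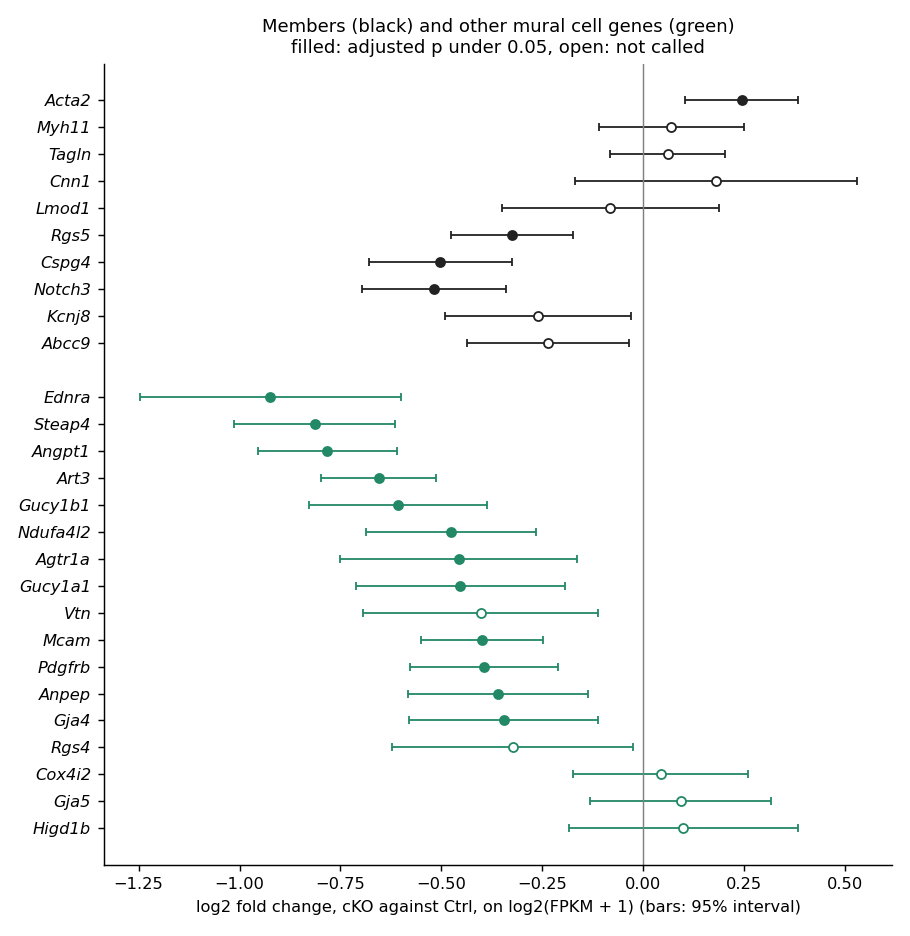
Log2 fold change of cKO against Ctrl on log2(FPKM + 1) for the 10 vascular genes (black) and 17 other mural cell genes (green), with 95% intervals from limma. Filled points were called at an adjusted p under 0.05 and open points were not. Of the contractile genes only *Acta2* is filled, and *Rgs5*, *Cspg4* and *Notch3* lie between -0.32 and -0.52 among the green points, of which 12 were called lower.

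Other mural cell genes were taken from a list of 18, of which 17 could be tested. Of these, 12 were called lower, 0 higher and 5 were not called, and in 14 the cKO pair lay wholly below the Ctrl pair. For this list and those that follow, the shares over all genes tested were 13.8% called lower and 12.0% higher. In 34.6% of all genes tested the cKO pair lay wholly below. The median log2 fold change was -0.40, against -0.01 over all genes tested. *Ednra*, the endothelin receptor that contracts vessels, had 6.76 and 5.4 FPKM in Ctrl and 2.34 and 3.13 FPKM in cKO, a log2 fold change of -0.92. *Angpt1*, the ligand with which mural cells steady the endothelium, had 9.06 and 8.79 FPKM in Ctrl and 4.83 and 4.71 FPKM in cKO, a log2 fold change of -0.78. *Steap4*, a metalloreductase that adipocytes also make, fell from 139 ± 0.940 to 78.7 ± 9.71 FPKM (SD, n = 2 each). *Art3*, an ADP-ribosyltransferase family member, fell from 95.6 ± 2.73 to 60.3 ± 2.78 FPKM (SD, n = 2 each).

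Some genes of this list were picked for mention after their values were seen. *Pdgfrb*, the receptor through which PDGF-B recruits pericytes, had 15.54 and 14.19 FPKM in Ctrl and 10.54 and 11.6 FPKM in cKO and was called lower (log2 fold change -0.39). *Gucy1a1* and *Gucy1b1* encode the subunits of soluble guanylyl cyclase, which relaxes vessels in response to nitric oxide. The table lists them under their older symbols. Both were called lower, with log2 fold changes of -0.45 and -0.61. *Cox4i2* and *Higd1b*, hypoxia-linked mitochondrial genes of pericytes, were not called. *Cox4i2* had 6.49 and 6.23 FPKM in Ctrl against 6.06 and 7.15 FPKM in cKO. *Higd1b* had 4.45 and 4.85 FPKM in Ctrl against 4.4 and 5.78 FPKM in cKO. In both genes the groups overlapped. By contrast *Ndufa4l2*, a further mitochondrial gene of this list, was called lower (log2 fold change -0.48). It had 13.37 and 12.19 FPKM in Ctrl and 9.6 and 8.25 FPKM in cKO.

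The Notch and PDGF pathways were read from 16 genes, of which 15 could be tested, and 4 were called lower and 0 higher. Their median was -0.13 on the log2 scale. Among the receptors, *Notch1* (log2 fold change -0.06) and *Notch2* (log2 fold change -0.02) had groups that overlapped, and *Notch4* was not called (log2 fold change -0.16). The ligand *Jag1*, which endothelial cells show to *Notch3* on mural cells, had 7.32 and 7.71 FPKM in Ctrl and 5.55 and 5.98 FPKM in cKO and was called lower (log2 fold change -0.33). *Heyl*, a target gene of Notch3, was also called lower, with 3.14 and 2.77 FPKM in Ctrl and 2.08 and 1.68 FPKM in cKO (log2 fold change -0.46). The shared DNA-binding partner *Rbpj* was lower as well (log2 fold change -0.28), and so was *Pdgfra*, the PDGF receptor of fibroblasts (log2 fold change -0.63). The ligand *Pdgfb* was at 16.82 to 18.58 FPKM in all 4 libraries, and its groups overlapped. Other Notch genes of the list, named after their values were seen, were not called. They were the target genes *Hes1* (log2 fold change -0.04), *Nrarp* (-0.13) and *Hey1* (-0.30) and the ligands *Jag2* (0.002), *Dll1* (-0.04) and *Dll4* (-0.21). The target gene *Hey2* was under the filter.

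Genes of smooth muscle transcription numbered 10, of which 9 could be tested, and 1 was called lower and 0 higher, around a median of 0.005 on the log2 scale. *Srf*, serum response factor, had 12.34 and 11.96 FPKM in Ctrl and 13.96 and 13.8 FPKM in cKO. Both cKO libraries were the higher ones, but it was not called (log2 fold change 0.18, 95% interval 0.03 to 0.33, adjusted p = 0.0795 by limma). *Klf4*, which holds back the contractile genes, fell from 30 ± 3.55 to 20.5 ± 0.672 FPKM (SD, n = 2 each, log2 fold change -0.52). *Myocd*, which encodes myocardin and was named after its values were seen, was under the filter at 0.03 to 0.07 FPKM.

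The contractile apparatus was read from 22 further genes, of which 17 could be tested. Of these, 6 were called lower, 1 higher and 10 were not called. The median log2 fold change was -0.12, with a range from -2.37 to 0.21. The largest falls were those of *Tpm1* and *Tpm2*, which encode tropomyosins, *Pdlim3*, a protein of the Z-disc, and *Des*, the intermediate filament desmin. *Tpm1* had 281.22 and 208.84 FPKM in Ctrl and 44.53 and 47.91 FPKM in cKO. *Des* had 40.86 and 31.26 FPKM in Ctrl and 17.9 and 18.86 FPKM in cKO. The log2 fold changes of *Tpm2* and *Pdlim3* were -2.02 and -1.26. These genes are used by skeletal muscle as well as by smooth muscle. The other called genes, named after their values were seen, were *Synm* (log2 fold change -0.56), also a filament gene of striated muscle, *Cald1* (log2 fold change -0.52), the actin-binding caldesmon, and *Flna* (log2 fold change 0.21), a widely expressed actin crosslinker.

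Within the contraction list, the genes of the myosin light chains and their kinase were not called. *Myl6*, the essential light chain of smooth and nonmuscle myosin and the most abundant gene of the list, had 699.24 and 681.91 FPKM in Ctrl and 631.06 and 640.08 FPKM in cKO and was not called (log2 fold change -0.12). *Myl9*, the regulatory light chain, and *Mylk*, the kinase that switches it on, were picked after their values were seen. *Myl9* was at 36.77 to 38.89 FPKM in the 4 libraries, with groups that overlapped. *Mylk* had 10.7 and 10.97 FPKM in Ctrl and 9.75 and 10.62 FPKM in cKO (log2 fold change -0.08), so that the cKO pair lay just below the Ctrl pair.

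Against these changes stood the loss of skeletal muscle genes. A list of 32 genes of the skeletal muscle fibre had a summed level of 2975 and 2028 FPKM in the Ctrl libraries and of 54.6 and 53.0 FPKM in the cKO libraries. The 10 vascular genes summed to 178 and 177 FPKM in Ctrl and to 158 and 162 FPKM in cKO, which is 0.899 of the Ctrl sum against 0.0215 for the skeletal muscle list. Of the 21 skeletal muscle genes that could be tested, 20 were called lower and 0 higher, and the median log2 fold change was -5.18. Many of them, such as *Ryr1*, *Neb* and *Tcap*, picked as examples, passed the filter only through their Ctrl values. The filter thus favoured genes high in Ctrl. Without it, 24 of the 32 genes were called lower and the median was -1.92. The largest changes were those of *Ckm*, the muscle creatine kinase (log2 fold change -7.51), *Tnnt3* (-7.27) and *Tnnc2* (-7.08), troponins of fast fibres, and the actin *Acta1* (-7.24). *Myl1*, a light chain of fast fibres and among the 2 most abundant genes of the list, changed by -2.81. The exception among the tested genes was *Tnnc1*, the troponin C of slow fibres and heart. It had 0.89 and 2.15 FPKM in Ctrl and 1.55 and 1.45 FPKM in cKO. Among the genes under the filter, named after their values were seen, *Tnnt1* had 0.17 and 0.29 FPKM in Ctrl. Its cKO libraries were higher, at 0.6 and 0.59 FPKM. The groups of *Tnni1*, *Myh7* and *Kcnj11* overlapped, and the rest under the filter lay lower in cKO. The range of the vascular genes, from -0.52 to 0.24, lay above both medians of the skeletal muscle list. Their ratio to the skeletal muscle list turned over: the skeletal muscle sum was 16.7 and 11.4 times that of the 10 genes in Ctrl and 0.347 and 0.327 times in cKO.

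**Figure D3:**
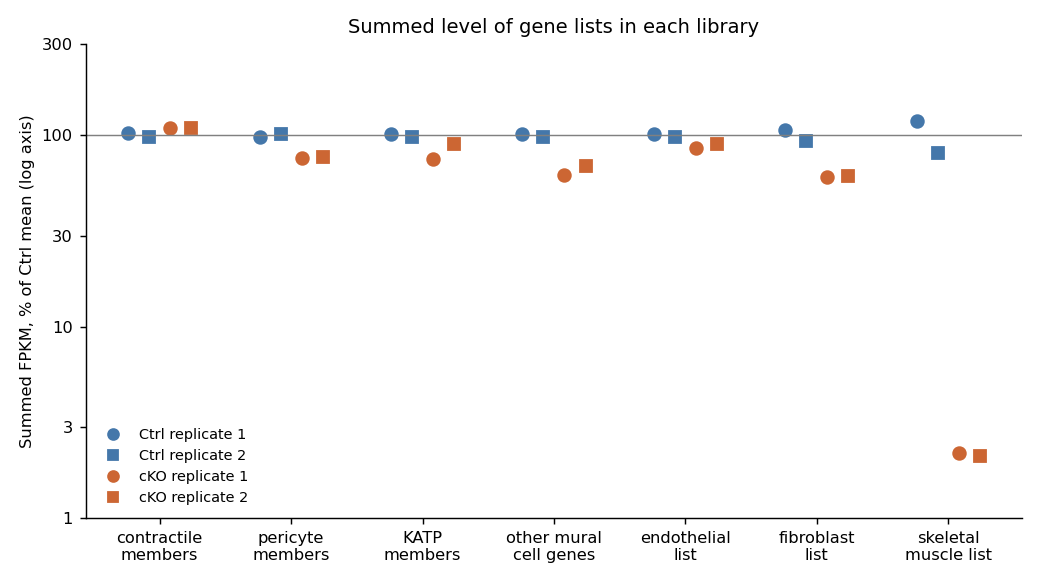
Summed FPKM of gene lists in each library, as a percentage of the mean of the Ctrl libraries, on a log axis. Blue is Ctrl, orange is cKO, circles are replicate 1 and squares replicate 2. The skeletal muscle list falls to 0.0215 of its Ctrl level. The contractile genes sum to 74.4 and 74.1 FPKM in cKO against 69.6 and 66.1 in Ctrl, with only *Acta2* of the 5 called. The pericyte group, here *Rgs5*, *Cspg4* and *Notch3*, sums to 66.1 and 67.5 against 85.4 and 89.3. The channel genes *Kcnj8* and *Abcc9* are shown apart from it.

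Within the actin family, a skeletal muscle paralogue fell and a smooth muscle paralogue was called higher on a small change. *Acta1*, the skeletal muscle alpha-actin, had 493.11 and 321.28 FPKM in Ctrl and 2 and 1.31 FPKM in cKO (log2 fold change -7.24). Its smooth muscle counterpart *Acta2* had a log2 fold change of 0.24, and that call was lost in 6 of 12 alternatives. In Ctrl ingWAT *Acta1* was 22.1 and 14.8 times as abundant as *Acta2*, and in cKO 0.0744 and 0.0509 times. Because actin genes resemble each other, it was checked how far a read of 50 bases could be placed on the wrong one. The coding sequences, of 1131 bases each, agreed at 85.4% of bases. No stretch of 50 bases was shared between the transcripts of *Acta2* and *Acta1*, and the longest identical coding run was 29 bases. The closest coding window of 50 bases that lies in 1 exon of each gene is shown, with the 2 bases that differ in capitals. It lies in exon 9 of *Acta2* (chr19:34241728-34241777, minus strand) and exon 7 of *Acta1* (chr8:123892070-123892119, minus strand) of the GENCODE transcripts in GRCm38.

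Acta2: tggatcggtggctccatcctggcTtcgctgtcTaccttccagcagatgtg
Acta1: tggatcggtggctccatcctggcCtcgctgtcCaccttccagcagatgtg

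Of the 1082 coding windows of 50 bases, 8 differed by 2 bases or fewer. With other genes, 7 of the 1986 windows of the *Acta2* transcript were shared, with the cytoplasmic actin *Actg1* and its pseudogenes. *Actg2*, the enteric smooth muscle actin, was low at 0.87 to 1.1 FPKM. The cytoplasmic actin *Actb* was called higher (768 ± 13.1 to 986 ± 26.3 FPKM, SD, n = 2 each, log2 fold change 0.36), and *Actg1* was not called (log2 fold change 0.14).

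Other families were compared in the same way. Among myosin heavy chains, *Myh4* of fast skeletal fibres had 117.51 and 82.15 FPKM in Ctrl and 0.34 and 0.14 FPKM in cKO, while *Myh11* overlapped between the genotypes. The nonmuscle *Myh9* was called higher (log2 fold change 0.23) and *Myh10* lower (log2 fold change -0.39). *Lmod3*, the leiomodin of skeletal muscle, was listed at 1.13 and 0.87 FPKM in Ctrl and at 0.13 and 0.15 FPKM in cKO and *Lmod2* at 0 in both cKO libraries, both under the filter. *Cnn2*, the calponin of many nonmuscle cells, was called higher (61.4 ± 1.46 to 83.5 ± 7.76 FPKM, SD, n = 2 each, log2 fold change 0.43), and so was *Rgs2*, a relative of *Rgs5* (18.2 ± 2.56 to 25.2 ± 0.318 FPKM, SD, n = 2 each, log2 fold change 0.45). *Rgs4*, *Cnn3* and *Tagln2* were not called, with log2 fold changes of -0.32, -0.13 and 0.15.

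The Ctrl libraries themselves differed in the level of skeletal muscle genes, and this was used to compare the lists. The ratio of Ctrl replicate 1 to Ctrl replicate 2 had a median of 1.46 over the 21 skeletal muscle genes and of 1.0 over all genes tested. Over the 10 vascular genes its median was 1.05, with a range from 0.913 to 1.53 of which the upper end was the low gene *Cnn1*. Over the 17 contraction genes tested the ratio had a median of 1.11 and ran from 0.906 to 1.53. The part of skeletal muscle in the changes of the contraction list was not tested.

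**Figure D4:**
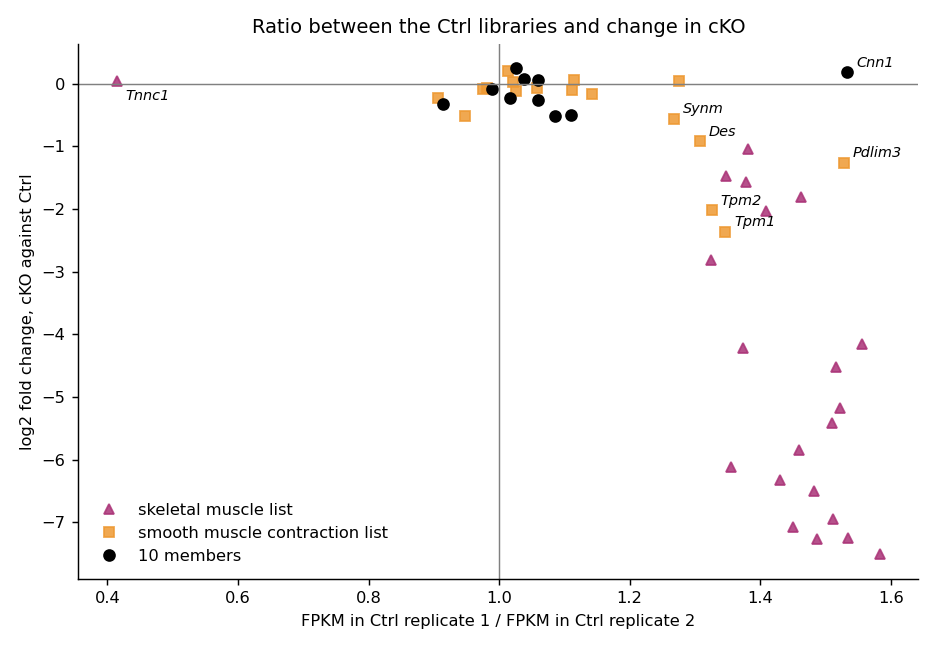
Ratio of FPKM in Ctrl replicate 1 to Ctrl replicate 2 (horizontal axis) against the log2 fold change of cKO against Ctrl (vertical axis), 1 point per gene tested, for the 10 vascular genes (black), the contraction list (orange) and the skeletal muscle list (purple). Apart from *Cnn1* the black points lie at ratios from 0.913 to 1.11 and near 0 on the vertical axis, while all skeletal muscle genes but *Tnnc1* lie at ratios from 1.32 to 1.58 and below -1.

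Genes of other cell types moved too, and their part in the result for the vascular genes was not tested. Of 17 endothelial genes, 7 were called lower and 0 higher, around a median of -0.22 on the log2 scale and with summed levels of 506 and 488 FPKM in Ctrl and 424 and 450 FPKM in cKO. Its largest called changes were those of *Tek*, the receptor of *Angpt1* (log2 fold change -0.60), the transcription factor *Erg* (-0.53), *Emcn* (-0.38) and *Ptprb* (-0.36). Of its most abundant genes, the cadherin *Cdh5* was called lower (-0.24) and the adhesion protein *Pecam1* was not called (-0.06). Relative to the endothelial sum, the 10 vascular genes stood at 0.352 and 0.364 in Ctrl and at 0.371 and 0.360 in cKO, so that the groups overlapped. The contractile genes stood at 0.138 and 0.136 in Ctrl and at 0.175 and 0.165 in cKO on this measure, and *Rgs5*, *Cspg4* and *Notch3* together at 0.169 and 0.183 in Ctrl and at 0.156 and 0.150 in cKO. Of 14 genes of fibroblasts and progenitors, 12 were called lower and 0 higher (median -0.69), with summed levels of 2533 and 2210 FPKM in Ctrl and 1434 and 1458 FPKM in cKO. The largest of these changes were those of *Pi16* (-1.94), *Cd34* (-1.05), *Mfap5* (-1.03) and *Dpt* (-0.99), and the abundant matrix gene *Dcn* changed by -0.92. Fibroblast-like cells of fat share genes such as *Pdgfrb* with pericytes. In the mural cell list 12 of 17 tested genes were called lower (median -0.40), against 12 of 14 in the fibroblast list. What fibroblast-like cells contributed to the mural cell list was not tested.

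Of 10 white adipocyte genes, 5 were called lower and 0 higher (median -0.25), led by *Lep* (log2 fold change -1.40), *Retn* (-0.78), *Adipoq* (-0.58) and *Cfd* (-0.57), while the most abundant, *Fabp4*, was not called (-0.25). Of 10 macrophage genes, 5 were lower and 2 higher (median -0.22), with *Fcgr1* (log2 fold change 1.18) and *Cd68* (0.73) higher, *Cd163* (-1.10), *Mrc1* (-0.72) and *C1qa* (-0.38) lower, and the abundant *Lyz2* not called (0.14). Of 10 genes of B and T cells, 10 were higher (median 0.63), with summed levels of 259 and 288 FPKM in Ctrl and 405 and 472 FPKM in cKO. *Cd3d* (log2 fold change 0.77), *Cd79a* (0.72), *Cd79b* (0.69) and *Cd3g* (0.66) changed most. Of 7 tested genes of Schwann cells and nerve, 6 were lower and 1 higher (median -0.93), among them the myelin genes *Mbp* (log2 fold change -1.20) and *Pmp22* (-0.98), with *S100b* higher (0.97). Myoepithelial cells also make *Acta2*, *Myh11*, *Tagln* and *Cnn1*. Of the 8 epithelial and myoepithelial genes in the table, 2 could be tested and both were lower (median -0.71). *Oxtr*, the oxytocin receptor, had 3.49 and 2.98 FPKM in Ctrl and 1.57 and 1.79 FPKM in cKO. *Trp63*, a factor of basal and myoepithelial cells, had 2.02 and 2.19 FPKM in Ctrl and 0.79 and 0.88 FPKM in cKO. The other genes of the list, named after their values were seen, were *Krt19* at 0.63 to 1.22 FPKM, *Epcam*, *Cdh1* and *Krt18* at 0.04 to 0.42 FPKM, and *Krt5* and *Krt8* at 0 to 0.03 FPKM, and the 8 summed to 3.89 to 7.29 FPKM.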

How the data were processed

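RNA-seq was done by the authors on polyadenylated RNA with single-end reads of 50 bases on the BGISEQ-500. The deposited values are FPKM per gene and library, and the submitters' processing notes name HISAT2 2.0.4, RSEM 1.2.12 and mm10 (GRCm38). No scaling between libraries is stated. The 4 columns were matched to the labels by their names (Deficient is cKO). Depth is not given and was estimated from the steps between FPKM values of 314 short noncoding genes, of which 85.5% to 91.4% of those used came out whole within 0.1 read. Read counts of genes were not recovered, so no count test was run.

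Genes with a mean of at least 1 FPKM were compared with limma 3.58.1 in R 4.3.3 on log2(FPKM + 1), with a trend of variance on mean, after a test on simulated data. FPKM + 1 shrinks the change of low genes. Python 3.11.15 with pandas 2.3.3 and matplotlib 3.10.9 was used for tables and plots.

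The genes and the lists were chosen with earlier results of these data known. Of each further list, up to 4 called genes with the largest change and no overlap, the 2 most abundant genes and listed paralogues were named, and others where said. A gene that this rule would name is not reported here. Of 189 list entries, 4 were found by gene ID under another symbol and 4 were not matched. Stretches of 50 bases were compared with GENCODE M21 transcripts. Promoter windows came from RefSeq, and 8 of the 10 genes had one. Alternatives were no filter, a filter at 5 FPKM, 0.1 in place of 1 as pseudocount, median-of-ratios scaling, quantile normalization, rescaling without the skeletal muscle list, a replicate block, no trend and leaving out each library.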

Additional observations from a re-analysis of the deposited data

How the results depend on the processing

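With 2 libraries per genotype, calls on small changes hang on single libraries, and the 4 libraries bound every statement. Of 118 values of single vascular genes under the alternatives, 103 kept their direction and their side of the threshold. Many of these belong to genes that were not called in the first place. A further 11 kept the direction but lost the call, 2 gained one and 2 changed sign. All 11 lost calls fell on the 4 called genes. They were 6 of 12 alternatives for *Acta2*, 3 of 12 for *Rgs5*, and 1 of 12 each for *Cspg4* and *Notch3*. Both sign changes were those of *Lmod1*, to 0.0019 after quantile normalization and to 9.68e-06 without cKO replicate 2, in a range from -0.16 over the libraries left out. Leaving out 1 library gave 1 to 5 vascular genes lower and 0 higher, 519 to 1434 genes lower and 358 to 1071 higher over the whole table, and 16 to 20 skeletal muscle genes lower. The lowest count of lower vascular genes came without Ctrl replicate 1, which left 1, and the highest without cKO replicate 2, which gave 5. Over the same alternatives the median log2 fold change of the vascular genes was -0.17 to -0.13 and that of the skeletal muscle list -5.71 to -5.12. Without a filter, 0 vascular genes were higher (*Acta2*, adjusted p = 0.0511 by limma), 2 were lower, 1095 genes were lower and 667 higher, and the median of the skeletal muscle list was -1.92. Without the trend, 0 vascular genes were higher. With a pseudocount of 0.1 the medians were -0.19 for the vascular genes and -6.70 for the skeletal muscle list, and with a mean of at least 5 FPKM, which leaves out *Cnn1* and *Lmod1*, they were -0.25 and -6.11. After quantile normalization the median of the vascular genes was -0.11. The cause of these shifts was not tested. Deviations of libraries with the same replicate number from their group means correlated at 0.0148 over genes. With 2 libraries per genotype this single correlation cannot show whether the libraries were paired, and the labels do not say. With the number as a replicate block, 3 vascular genes were lower and 1 higher, 1789 genes lower and 1594 higher, the same counts of vascular genes as without it. Median-of-ratios scaling and rescaling without the skeletal muscle list also left 3 lower and 1 higher.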

Other observations

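Of the contraction list, 5 genes stood under 1 FPKM and were not tested, and they are given as values, chosen after these were seen. They include most ion channel genes of the list. *Kcnma1*, the large-conductance potassium channel of smooth muscle, was at 0.45 and 0.47 FPKM in Ctrl and at 0.34 and 0.26 FPKM in cKO. Its regulatory subunit *Kcnmb1* was at 0.08 to 0.2 FPKM in the 4 libraries. *Cacna1c*, the calcium channel through which smooth muscle is triggered, was at 0.44 and 0.45 FPKM in Ctrl and at 0.34 and 0.43 FPKM in cKO. *Prkg1*, the kinase that relaxes smooth muscle downstream of cyclic GMP, was at 0.65 and 0.55 FPKM in Ctrl and at 0.51 and 0.33 FPKM in cKO. *Itga8*, an integrin of smooth muscle, was at 0.36 to 0.55 FPKM with groups that overlapped.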
